A study of Mus musculus with 18 samples.

Results

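Stefins are small intracellular proteins that block papain-like cysteine proteases, and in the mouse most of the type A stefins are encoded side by side on chromosome 16. Values for 8 of the 32285 genes counted in this single-cell study of mouse skin were taken by symbol: Stfa1, Stfa2, Stfa2l1, Stfa3, Cstdc4, Cstdc5 and Csta1, which lie in that cluster, and Cstb, the stefin B gene on chromosome 10. The choice was made with earlier results of these libraries known, including that such genes are high in some cell classes and in expanded skin. Levels are therefore given as descriptions, and the p-values below come from fits over all genes and carry no independent support.

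The skin came from mice that had all been operated on: the back was cut near the tail and a channel was opened under the skin to the neck. Expanded mice (EXP) then received a hydrogel expander held by stitches near the neck, and control mice (CTRL) received none, so the control arm carries the wound of the surgery too. Strain, sex, age and genotype are not given in the sources used here. Live cells were sorted and counted with a 3′ droplet method, in 5 control and 5 expanded libraries: 2 per arm on day 1, 2 per arm on day 2 and 1 per arm on day 4. Each library pooled several mice of an arm, and the control and expanded libraries of a sequencing round belong together.

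As background, stefins act in the cytosol, where they can stop cathepsins that leak from lysosomes, and they differ in this from the secreted cystatins such as Cst3. A hairpin loop shared by the family enters the active-site cleft of the protease. In human skin stefin A (CSTA) is a component of the cornified envelope, and loss of CSTA causes a peeling skin disease. Mice have multiplied the gene into a cluster whose copies are known from neutrophils and from stressed epidermis, while stefin B is made by most cell types.

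The 7 clustered genes lie within 335 kb of chromosome 16, from base 36119946 to base 36455392 of GRCm38 (mm10), with 3 other stefin A-type genes (Csta2, Csta3 and Cstdc6) among them. Cstb lies at 78425669 to 78427622 on chromosome 10. Every one of the 8 has 3 exons in its annotated protein-coding transcript. The coding sequences of the 7 clustered genes were 56.2% to 96.4% identical to each other over 21 pairs, with a median of 77.3%, and Stfa2 with Stfa2l1 was the closest pair. Cstb was 45.2% to 60.2% identical to the clustered genes.

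The coding stretch that spans the conserved hairpin loop shows how alike the members are at the part that meets the protease. It is printed for all 8 members from the GENCODE transcripts of GRCm38, 57 bases each, with the 15 bases of the loop's 5 codons in capitals. The stretch covers coding bases 115 to 171 of Stfa1, Cstdc4, Cstdc5, Csta1 and Cstb, and 133 to 189 of Stfa2, Stfa2l1 and Stfa3.
Cstdc4: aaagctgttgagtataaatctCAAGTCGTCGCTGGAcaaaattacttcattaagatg
Stfa1: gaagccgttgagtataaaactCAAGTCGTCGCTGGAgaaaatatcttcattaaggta
Stfa2: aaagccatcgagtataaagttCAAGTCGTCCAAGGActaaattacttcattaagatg
Stfa2l1: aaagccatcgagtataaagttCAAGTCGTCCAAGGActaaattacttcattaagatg
Stfa3: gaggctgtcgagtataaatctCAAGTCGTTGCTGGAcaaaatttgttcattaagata
Cstdc5: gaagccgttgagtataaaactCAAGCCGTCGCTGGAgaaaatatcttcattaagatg
Csta1: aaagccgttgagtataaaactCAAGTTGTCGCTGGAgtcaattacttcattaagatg
Cstb: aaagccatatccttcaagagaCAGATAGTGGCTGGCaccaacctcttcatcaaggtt
Counting from 1 at the first capital and taking Cstdc4 as the reference, Stfa1 had no difference in the 15 bases. Stfa3 differed by C9T, Cstdc5 by T5C and Csta1 by C6T. Stfa2 and Stfa2l1 shared G10C, C11A and T12A, and Cstb differed by A3G, G4A, C6A, C9G and A15C.

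Upstream sequence is shown for the 3 members whose RefSeq (GRCm38.p6) and GENCODE start sites coincide: Cstdc4 and Stfa2l1, which were high in neutrophil-like cells, and Stfa3, which was high in keratinocyte-like cells. The RefSeq promoter table held 7 of the 8 members. Each line gives the 100 bases before the start, at chr16:36184112-36184211 (plus strand) for Cstdc4, chr16:36156711-36156810 (plus strand) for Stfa2l1 and chr16:36455393-36455492 (minus strand) for Stfa3. Capitals mark ACCTTTAAAACC and, where present, TTCCTC, the reverse of the GAGGAA core that PU.1, a transcription factor of myeloid cells, is known to bind.
Cstdc4: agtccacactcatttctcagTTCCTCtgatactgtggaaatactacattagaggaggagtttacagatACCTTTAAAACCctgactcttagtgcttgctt
Stfa2l1: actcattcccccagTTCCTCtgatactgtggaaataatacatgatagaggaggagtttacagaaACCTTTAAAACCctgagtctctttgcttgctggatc
Stfa3: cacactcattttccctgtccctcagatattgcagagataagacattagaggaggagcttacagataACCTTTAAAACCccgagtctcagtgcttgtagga
ACCTTTAAAACC, looked for after the sequences had been seen as the longest string shared by 6 of the 7 members (not Csta1), stood in 0.0304% of the 100-base windows of 32851 promoters. Its first base lay 32 to 36 bases before the start in Cstdc4, Stfa1, Stfa2, Stfa2l1 and Stfa3, and 12 bases before it in Cstdc5. GAGGAA, searched on both strands, stood in this window of Stfa2, Stfa2l1, Cstdc4 and Csta1 and not of Stfa1, Stfa3 or Cstdc5. It is a common string, present in 9.82% of all such windows, and a match of letters shows no binding. Within 250 bases before the start GAGGAA stood in all 7 members, where 23.3% of promoters had it. It lay 178 bases before the start in Stfa1, 135 in Stfa3 and 248 in Cstdc5, so the wider window does not set these members apart. The other strings searched on both strands were TATAAA (5.56% of 100-base windows), TGANTCA (2.73%) and TTGCNNAA (3.43%). Of these only TTGCNNAA matched in the 100 bases, in Cstdc5 at 88 bases before the start. Within 250 bases it also matched in Stfa1, at 109 bases.

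Near-identical ends limit how surely reads can be given to one copy. In the last 400 bases of the transcripts, 28.3% of the 90-base stretches of Cstdc5 also occurred in Cstdc6 or Stfa1, and 16.1% of those of Cstdc4 also occurred in Csta2. The share was 5.79% for Stfa1 (with Cstdc5), 2.57% for Stfa2 and Stfa2l1 (with each other), and 0 for Stfa3, Csta1 and Cstb. Counts of Cstdc5, Cstdc4, Stfa1, Stfa2 and Stfa2l1 are uncertain to that extent, and the sum over the 7 clustered genes is given beside them. That sum leaves out Cstdc6 and Csta2, so it does not remove the uncertainty.

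The 10 libraries held 2468 to 9115 barcodes and 17726739 to 75470722 gene UMIs (unique molecular identifiers, each standing for 1 captured transcript). After filters 1853 to 7956 cells per library remained, 45488 in all, with a median of 6321.5 to 12755 UMIs per cell. Pairs of libraries shared 1 to 23 barcodes. Clusters were called "-like" a cell type from marker genes, giving 15 named classes, and 9213 cells in 8 clusters stayed unnamed. Neutrophil-like cells made up 0.123% to 0.767% of control libraries (7 to 43 cells) and 0.653% to 14.9% of expanded libraries (19 to 493 cells). A level is the UMIs of a gene per 1000000 UMIs (CPM), both summed over the cells of a class in a library. A 3′ UMI counts 1 transcript whatever its length, so levels of different genes compare numbers of captured transcripts.

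By UMIs pooled over all libraries, 3 of the clustered genes were mainly in neutrophil-like and 3 mainly in suprabasal keratinocyte-like cells. Of 20381 Cstdc4 UMIs, 91.0% were in neutrophil-like cells, and the share was 94.9% for Stfa2l1 (13296 UMIs) and 81.6% for Stfa2 (5006 UMIs), which had a further 14.5% in dendritic-like cells. These shares pool libraries that differ: in the day 1 round 1 expanded library 368 of 388 Stfa2 UMIs were in dendritic-like and 1.03% in neutrophil-like cells, and in the day 2 round 2 control 49 of 50 were in dendritic-like cells, whereas neutrophil-like cells held 96.2% in the day 4 expanded library. Suprabasal keratinocyte-like cells held 78.8% of 7655 Stfa3 UMIs, 72.9% of 31694 Cstdc5 UMIs and 77.5% of 623 Csta1 UMIs, and Cstdc5 had a second site in neutrophil-like cells with 24%. The Cstdc5 shares differed by library too. Neutrophil-like cells held 1.66% in the day 1 round 1 expanded library and 48.9% and 47.0% in the day 2 expanded libraries. Suprabasal cells held 49.8% and 47.9% in those of day 2. Stfa1 was almost absent, with 42 UMIs in all cells, 19 of them in suprabasal keratinocyte-like and 18 in neutrophil-like cells. Cstb was present in every class, with 301375 UMIs, of which 33.6% were in macrophage or monocyte-like cells.

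**Figure D1:**
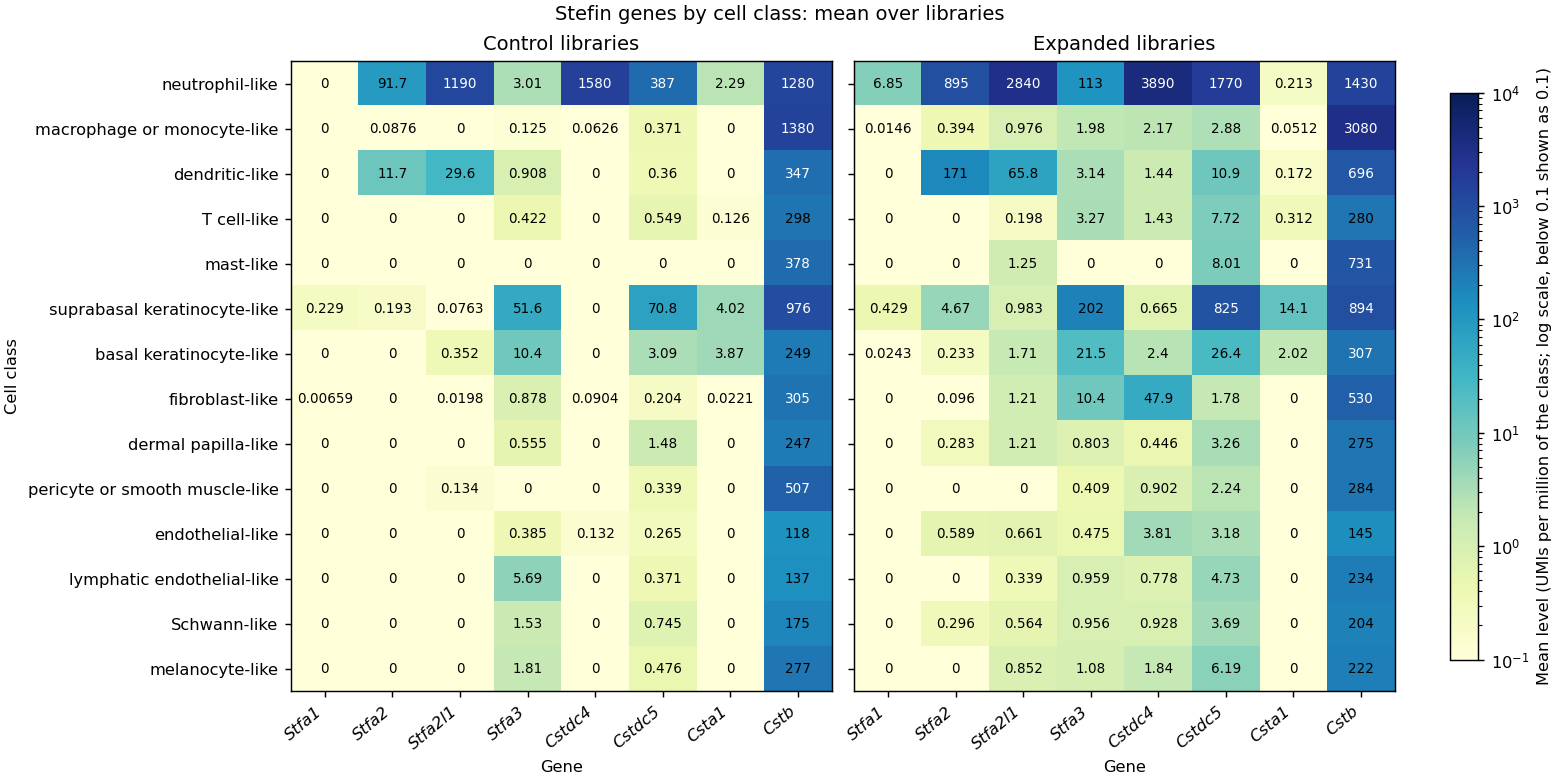
Mean level of each gene (columns) in 14 of the 15 named cell classes (rows; hair follicle keratinocyte-like cells are not drawn) over the control libraries (left) and the expanded libraries (right), in CPM on a log colour scale, from 3 to 5 libraries per class and arm with enough cells. The clustered genes are concentrated in neutrophil-like and suprabasal keratinocyte-like cells, and Cstb spans all classes.

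In neutrophil-like cells the sum of the 7 clustered genes was 1870 to 4950 CPM in the 5 control libraries and 3540 to 15200 CPM in the 5 expanded libraries. The expanded mean was 9510 ± 4620 CPM (SD, n = 5). The day 1 round 1 expanded library was the lowest of its arm, below 2 of the control libraries, and the day 4 expanded library was the highest.

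In expanded libraries Cstdc4 had the highest mean of the clustered genes there (3890 CPM, before Stfa2l1 with 2840 CPM), while in controls Stfa2l1 was above Cstdc4 in 3 of 5 libraries. In control libraries its level was 506 and 542 CPM (day 1), 3810 and 1300 CPM (day 2) and 1740 CPM (day 4). In expanded libraries it was 1170 and 2290 CPM (day 1), 5580 and 5590 CPM (day 2) and 4810 CPM (day 4). Each expanded library was above the control library of its own round, while the arms overlapped through the high day 2 round 1 control, which had 9 neutrophil-like cells.

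Stfa2l1 in control neutrophil-like cells stood at 1460 and 1100 CPM (day 1), 574 and 938 CPM (day 2) and 1890 CPM (day 4). The expanded libraries gave 1320 and 2260 CPM (day 1), 3130 and 3320 CPM (day 2) and 4170 CPM (day 4). In the first round of day 1 the expanded library was slightly below its control, and in the other rounds it was higher.

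For Cstdc5 the control values were 823 and 90.4 CPM (day 1), 503 and 343 CPM (day 2) and 174 CPM (day 4). The expanded values were 955 and 1060 CPM (day 1), 1390 and 1550 CPM (day 2) and 3910 CPM (day 4). All 5 expanded libraries were above all 5 controls, and the day 4 library stood far above the other expanded libraries.

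Stfa2, the near twin of Stfa2l1, was lower: 63.3 CPM, 120 CPM, 71.8 CPM, 0 CPM and 203 CPM in controls and 53.8 CPM, 578 CPM, 705 CPM, 1190 CPM and 1950 CPM in expanded libraries, in the same order of days and rounds. Only the first expanded library lay within the range of the controls. Stfa3 was detected in 1 of 5 control libraries (15.1 CPM) and in all 5 expanded ones, at 26.9 to 353 CPM. The lowest expanded value was 2 UMIs. In the control libraries 3 UMIs would stand at 34.3 to 215 CPM, so their zeros do not separate them from that value. Stfa3 was not tested in this class. Cstb in these cells was 407 to 2340 CPM in controls and 914 to 2070 CPM in expanded libraries, so its arms overlapped widely.

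**Figure D2:**
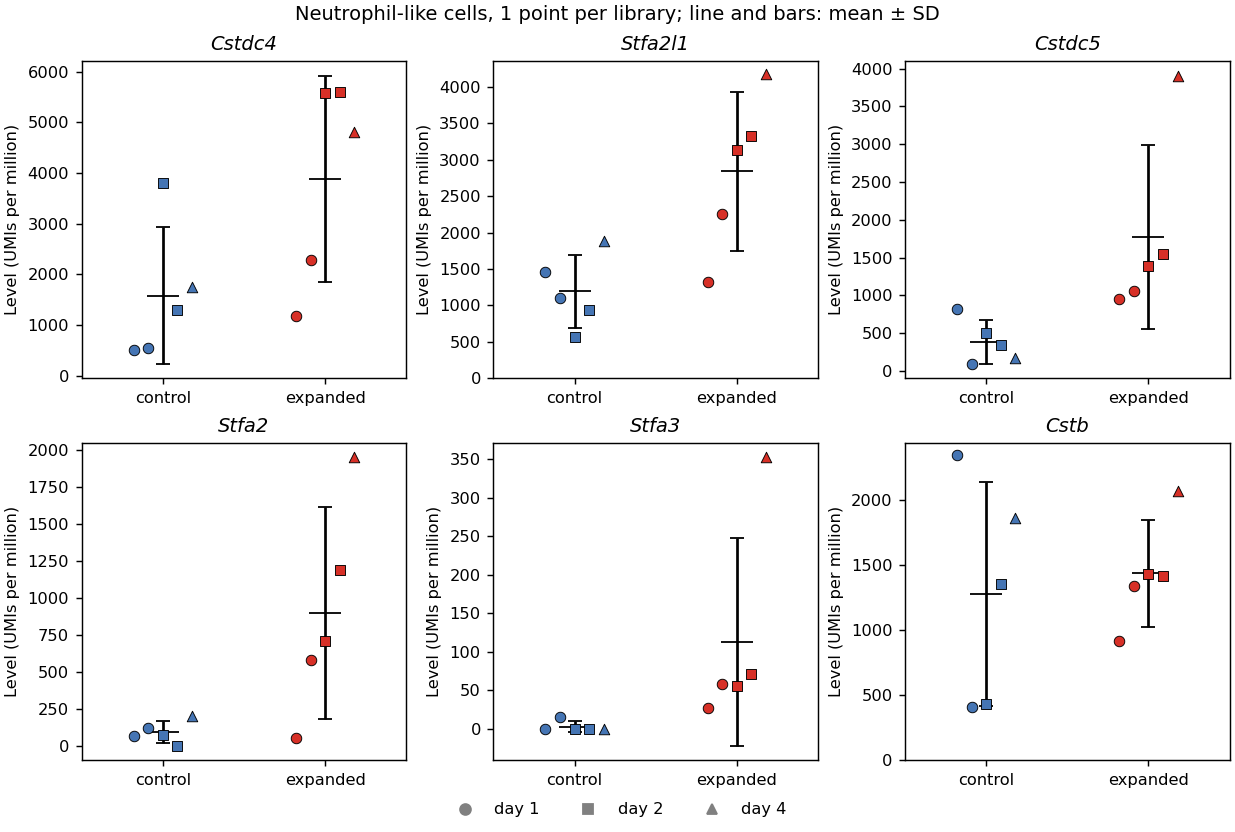
Level in neutrophil-like cells of 6 genes in CPM (vertical axis) in control and expanded libraries (horizontal axis), 1 point per library with the symbol giving the day, and the mean ± SD as a line with bars. Cstdc5 separates the arms in all libraries. For Stfa3 most controls are at 0 and the lowest expanded library rests on 2 UMIs, too few to separate the arms. Stfa2l1 and Stfa2 overlap at the lowest expanded library, Cstdc4 overlaps at both day 1 expanded libraries, and Cstb overlaps throughout.

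With edgeR's quasi-likelihood test on the summed counts, Cstdc4 was the 1 of the 5 members tested in neutrophil-like cells that was called higher, against 0.781% of the 896 genes tested. It rose by 1.64 ± 0.30 on the log2 scale (SE, edgeR adjusted p = 0.0280, 5 libraries per arm). Stfa2l1 (log2 difference 1.44 ± 0.32), Cstdc5 (2.47 ± 0.54) and Stfa2 (3.5 ± 0.79) each had an edgeR adjusted p of 0.0566, just short of the threshold, and Cstb (0.42 ± 0.41) one of 0.686. DESeq2 called all 4 clustered genes (adjusted p of 0.000160 to 0.0418), with no share over all genes given for it. With the sequencing round as a block, edgeR called Cstdc4 (adjusted p = 0.0164) and Stfa2 (0.0407) and not Cstdc5 (0.0553) or Stfa2l1 (0.0946), where again 0.781% of genes were called higher. Without the day 4 control library, or without the day 1 round 2, the day 2 round 1 or the day 4 expanded library, no member was called, and the adjusted p of Cstdc4 was 0.0509 to 0.152. Without both day 4 libraries no member was called either (Cstdc4 adjusted p = 0.173).

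Single mice were told apart by their hashtags. Among mice with at least 5 neutrophil-like cells, the 6 control mice had 130 to 1290 CPM of Stfa2l1 and the 13 expanded mice 2020 to 4650 CPM. Stfa2 was 0 to 124 CPM in those control mice and 132 to 2180 CPM in the expanded ones. Both of these genes separated all of these mice by arm, Stfa2 narrowly, by 124 against 132 CPM in mice of 9 and 11 cells. The other hashtagged mice had 1 to 3 neutrophil-like cells and were left out. The control mice among them had 0 to 3980 CPM of Stfa2l1 and 0 to 765 CPM of Stfa2, which reached into the expanded range. Cstdc4 was 538 to 1820 CPM against 1180 to 7360 CPM, and Cstdc5 41.4 to 520 CPM against 203 to 4170 CPM, each with some overlap. With mice as the unit and the sequencing round as a block (the first round of day 1 carries no hashtags), edgeR called Cstdc4 (log2 2.13, adjusted p = 0.000155), Stfa2l1 (1.90, 0.000959), Cstdc5 (2.78, 0.00171) and Stfa2 (4.27, 0.00130). The share of all genes called with mice as the unit is not given.

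The level of a class can rise because more cells carry the gene or because each carries more. With every cell thinned to 2000 UMIs, which kept 50 control and 1020 expanded neutrophil-like cells, Cstdc4 was found in 42% of control and 59.0% of expanded cells, and Stfa2l1 in 48.0% and 60.2%. Cstdc5 was found in 16% and 36.8%, and Stfa2 in 8.0% and 24.4%. Before thinning Cstdc4 was in 35.8% of 106 control cells (exact 95% interval 26.8% to 45.7%) and 60.8% of 1200 expanded cells (57.9% to 63.5%), at median depths of 1985 and 3012.5 UMIs. In T cell-like cells of the expanded libraries, with a median of 4691 UMIs, 0.622% had a Cstdc4 UMI. Intervals here and below cover counting error only.

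Within the expanded libraries the clustered genes occurred in the same neutrophil-like cells. Of thinned cells with Stfa2, 90.8% also had Stfa2l1, against 50.3% of cells without Stfa2. Of those with Stfa2l1, 80.6% had Cstdc4, against 26.4% of the rest, and Spearman's rho between the 2 genes over 1020 cells was 0.63. Cstb did not follow: 73.3% of cells with Cstdc4 and 72.2% of cells without it had Cstb, with a rho of -0.02. These pairs share libraries and cells, so the values are descriptions.

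The 450 expanded neutrophil-like cells with at least 10 Cstdc4 UMIs had 5810 CPM of Stfa2l1, 3850 CPM of Cstdc5 and 2200 CPM of Stfa2. The 471 cells without a Cstdc4 UMI had 571 CPM, 258 CPM and 82.3 CPM of the same genes. Of the genes outside the 8, Csta3, another stefin of the cluster, differed most (477 against 19.5 CPM), followed by Fam162a (103 against 14.4 CPM) and the interferon-induced Rsad2 (282 against 81.5 CPM). Crip1 was lower (41.9 against 224 CPM), as was the integrin gene Itga4 (26.0 against 91.6 CPM). Retnlg, a neutrophil marker, was 4160 and 3020 CPM, and median UMIs per cell were 3389.5 and 2782. These cells were picked by Cstdc4 itself, and the comparison has no test.

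Genes of fibroblasts, as a measure of free fibroblast RNA, were lower in the expanded neutrophil-like cells: the summed level of 5 fibroblast genes (Col1a1, Col1a2, Col3a1, Dcn, Sparc) was 721 to 4170 CPM in controls and 33.8 to 390 CPM in expanded libraries. Col1a1 and Col3a1 each fell by 3.75 on the log2 scale (edgeR adjusted p = 0.0280 each). Of 23 neutrophil genes, 15 were tested in this class, 1 rose (Wfdc21, log2 2.04, edgeR adjusted p = 0.0280) and none fell. S100a8 had a log2 difference of 1.06 ± 0.25 (edgeR adjusted p = 0.0624). In fibroblast-like cells themselves Col1a1 was lower in the expanded library of every round (15400 to 61000 CPM in control and 4940 to 24000 CPM in expanded libraries). The fibroblast sum thus does not measure free RNA of other cell types. The part of free RNA in the rise of the stefins was not tested.

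In suprabasal keratinocyte-like cells Cstdc5 and Stfa3 rose. The class is 1 cluster of 2424 cells, led by Ly6d, Defb6 and Krt1. It was raised for 7 suprabasal markers and for every basal keratinocyte marker on the list. Krt79, a gene of the upper hair follicle, was among its 10 leading genes, so the class cannot be placed in a single layer. Cstdc5 in control libraries was 12.1 and 19.0 CPM (day 1), 0 and 138 CPM (day 2) and 185 CPM (day 4). In expanded libraries it was 593 and 804 CPM (day 1), 860 and 786 CPM (day 2) and 1080 CPM (day 4). The arms did not overlap, and the lowest expanded library was at 593 CPM against a highest control of 185 CPM. The log2 fold change was 3.86 ± 0.58 (SE, edgeR adjusted p = 0.00240).

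Stfa3 was 14 CPM, 27.6 CPM, 74.3 CPM, 49.8 CPM and 92.3 CPM in the control libraries of this class and 51.1 CPM, 185 CPM, 179 CPM, 188 CPM and 410 CPM in the expanded ones. In every round the expanded library was the higher, and the day 4 expanded library was the highest of all. The log2 fold change was 2.05 ± 0.32 (SE, edgeR adjusted p = 0.00273). Csta1 was 0 to 9.92 CPM in controls and 4.01 to 30 CPM in expanded libraries, with a log2 difference of 1.48 ± 0.54 that did not pass edgeR's test (adjusted p = 0.0758) and passed DESeq2's (log2 1.82, adjusted p = 0.0151). It also passed edgeR's test without the day 1 round 1 control (adjusted p = 0.0361) or expanded library (0.00863). Cstb had a log2 difference of -0.25 ± 0.16 (edgeR adjusted p = 0.310). In all, 2 of the 4 members tested were called, against 8.90% of the 10196 genes tested that were called higher.

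**Figure D3:**
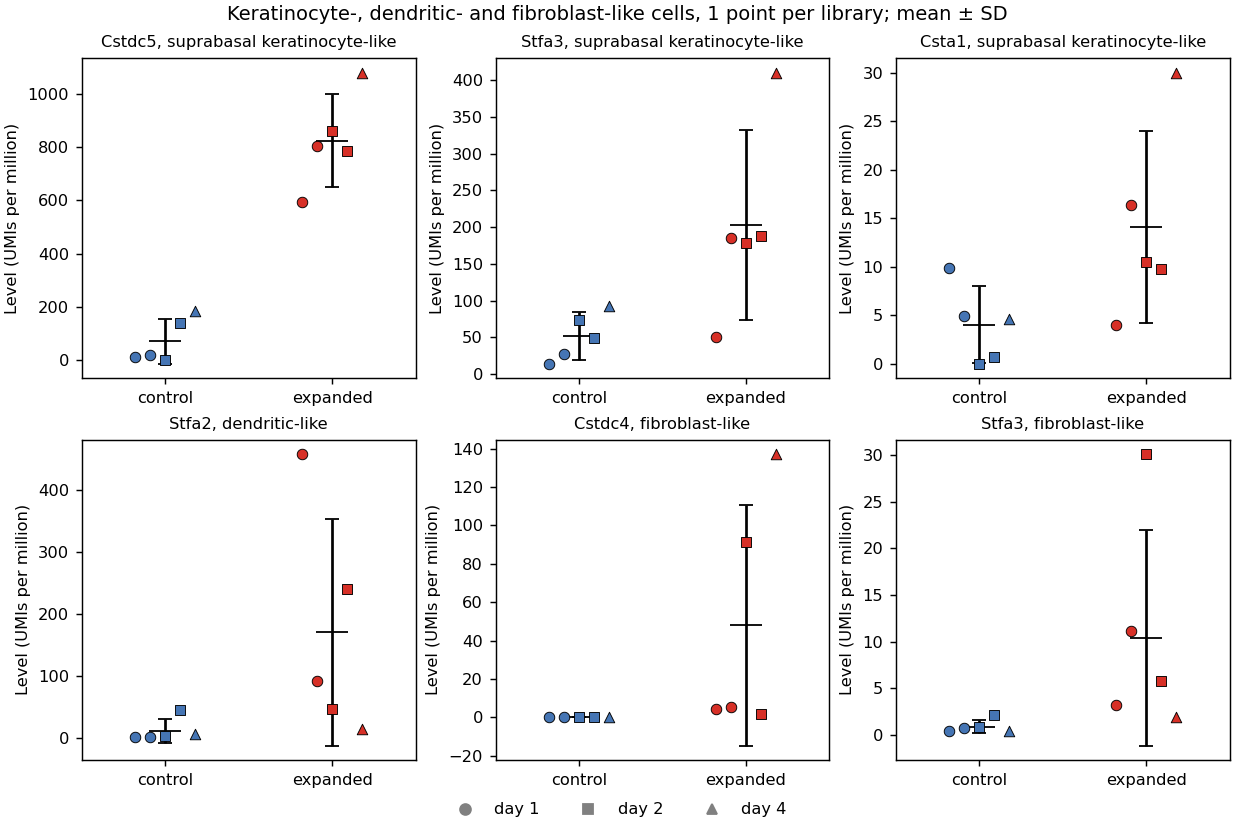
Level in CPM (vertical axes) of Cstdc5, Stfa3 and Csta1 in suprabasal keratinocyte-like cells, Stfa2 in dendritic-like cells and Cstdc4 and Stfa3 in fibroblast-like cells, by arm, with 1 point per library, the symbol giving the day, and the mean ± SD. Cstdc5 in keratinocytes and Cstdc4 in fibroblasts separate the arms, and in dendritic-like and fibroblast-like cells a few expanded libraries carry most of the level.

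The keratinocyte signal came from part of the cells. Of 1371 expanded suprabasal cells 519 had a Cstdc5 UMI, and the 303 cells with at least 10 UMIs held 96.8% of the 22097 UMIs, the highest cell having 822. In control libraries 77 of 1053 cells had a UMI, and the 10 highest held 75.5% of 1011. Thinned to 2000 UMIs per cell, 2.94% of control and 25.7% of expanded cells had Cstdc5, and 4.60% and 13.9% had Stfa3. Both genes met in the same cells: of expanded cells with Stfa3, 72.7% had Cstdc5, against 16.8% of cells without it, and 61.5% against 19.9% after thinning.

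The 235 expanded cells with at least 20 Cstdc5 UMIs came from all 5 expanded libraries, 7 to 107 cells each. Compared with the 852 cells of the same cluster without Cstdc5, they had more of the wound keratins Krt6b (247 against 4.05 CPM) and Krt16 (1030 against 77.2 CPM), of S100a8 (681 against 16.6 CPM) and of Stfa3 (565 against 28.8 CPM). They had less of Cst6, a secreted cystatin of the epidermis (113 against 3400 CPM), of Defb6 (223 against 1970 CPM) and of Krt79, a keratin of the upper hair follicle (403 against 1570 CPM). Krt10, a marker of the suprabasal layers, was 578 and 533 CPM. Cstb was lower in the cells high in Cstdc5, at 479 against 1070 CPM. The median depth was 28550 and 13485 UMIs per cell, and the cells were picked by Cstdc5, so these values are descriptions.

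Over the whole class, 3 of 12 cornified envelope and stress keratinocyte genes tested were called higher and none lower, where 17.7% of all genes were called in either direction: Krt6b (log2 4.39), Krt6a (1.78) and Krt16 (1.56). The list's median was 0.07, beside 0.00 over all genes tested. Neutrophil genes in this class summed to 81.5 to 402 CPM in controls and 204 to 3020 CPM in expanded libraries, with Ltf, Ngp, Ly6g, Cd177 and Elane at 0 in the latter. Of 6 such genes tested 4 rose, among them S100a8 (log2 4.49, edgeR adjusted p = 0.0126) and S100a9 (4.76, 0.00769), which keratinocytes can make too, and 2 fell, 1 of them Il1r2 (-1.47, 0.00280). Per 100 UMIs of S100a8 and S100a9 together, expanded suprabasal cells had 182 Cstdc5 UMIs and expanded neutrophil-like cells 1.84. The 5 fibroblast genes summed to 464 to 11900 CPM in control and 23.8 to 4200 CPM in expanded suprabasal cells, and the part of free RNA in these changes was not tested.

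In basal keratinocyte-like cells Cstdc5 rose from near 0 to a level far below that of the suprabasal class. In the 4 control libraries with at least 20 such cells it was 0 and 0 CPM (day 1), 1.09 CPM (day 2) and 11.3 CPM (day 4). In the 5 expanded libraries it was 1.47 and 4.50 CPM (day 1), 10.1 and 28.9 CPM (day 2) and 87.2 CPM (day 4). The arms overlapped through the day 4 control. In the expanded libraries 64 of 1479 cells had a UMI, and the 10 highest held 81.0% of the 378 UMIs. The log2 fold change was 3.35 ± 0.53 (SE, edgeR adjusted p = 0.0183), 1 call among 3 members tested, where 1.10% of 9657 genes were called higher. Only 10 alternatives tested Cstdc5 in this class, against 20 for Cstb, and 3 of the 10 lost the call. They left out the day 1 round 1 control (edgeR adjusted p = 0.0634), the day 2 round 2 control (0.0639) or the day 4 control (0.0741). Stfa3 there was 4.92 to 20.4 CPM in controls, 5.70 to 15.3 CPM in the expanded libraries of days 1 and 2 and 65.8 CPM in that of day 4 (log2 difference 0.63 ± 0.60, edgeR adjusted p = 0.596). Without the day 4 libraries its difference was -0.24. Neutrophil genes of this class summed to 45.3 to 195 CPM in controls and 85.8 to 925 CPM in expanded libraries, and their part in the rise of Cstdc5 was not tested.

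In dendritic-like cells, 1 cluster of 748 cells, Stfa2 rose. The cluster was raised for 8 dendritic markers and for every Langerhans cell marker on the list, with Ccl22, Cd207 and Ccr7 leading. A cluster of 3668 cells led by Lyz1, Mmp12 and Mgl2 shared markers with macrophages and stayed unnamed. In control libraries Stfa2 was 1.64 and 1.88 CPM (day 1), 2.62 and 46.1 CPM (day 2) and 6.01 CPM (day 4). In expanded libraries it was 458 and 92.9 CPM (day 1), 46.4 and 241 CPM (day 2) and 14.6 CPM (day 4). Each expanded library was above the control of its round, and the day 4 expanded value lay below the day 2 round 2 control. The log2 fold change was 3.29 ± 0.88 (SE, edgeR adjusted p = 0.0456), the only call among 3 members tested, where 2.45% of 6938 genes were called higher. The call was lost on leaving out any one of 7 of the 10 libraries (edgeR adjusted p = 0.0706 to 0.141) or both day 4 libraries (0.0895), on keeping doublets (0.0502) and with 1 of 4 other clustering seeds (0.0575). With the 3 others, which also gave a second cluster of 2968 to 3178 cells the dendritic name, it held (log2 4.20 to 4.25, edgeR adjusted p = 0.00803 to 0.00956). The 7 were the controls other than that of day 2 round 2 and the expanded libraries of day 1 round 2, day 2 round 2 and day 4. Stfa2l1 had 0.53 ± 0.65 (edgeR adjusted p = 0.650) and Cstb 0.75 ± 0.27 (0.114).

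The dendritic-like Stfa2 counts were held by few cells: 42 of 345 expanded cells had a UMI, and the 10 highest held 83.8% of 668 UMIs. Against the 303 cells without Stfa2, the 21 cells with at least 3 UMIs had more of Xcr1 (302 against 67.0 CPM) and Clec9a (84.2 against 11.1 CPM), 2 genes that mark type 1 conventional dendritic cells, and of Itgae (346 against 47.8 CPM) and Naaa (1900 against 334 CPM). Ccr7, a gene of migrating dendritic cells, was lower in them (195 against 1270 CPM), as were Mfge8 (5.81 against 1610 CPM) and Fabp5 (177 against 4340 CPM). They had 532 CPM of Stfa2l1 and no Cstdc4 or Cstdc5 UMI, whereas expanded neutrophil-like cells had more Cstdc4 than Stfa2l1. For Stfa2 per 100 UMIs of S100a8 and S100a9 together the values were 355 in expanded dendritic-like cells and 0.996 in expanded neutrophil-like cells. The 23 neutrophil genes summed to 86.4 to 342 CPM in control and 470 to 961 CPM in expanded dendritic-like cells, with Mmp8, Ltf, Camp, Ly6g, Cd177, Mpo and Elane at 0 in the latter. The part of neutrophil RNA in the rise of Stfa2 was not tested. Of the 21 cells, 10 came from the day 1 round 1 expanded library. Median depth was 13648 UMIs in the 21 cells and 11649 in the cells without Stfa2. The 21 cells were picked by Stfa2 itself, so their comparison mixes library with cell identity and has no test.

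Fibroblast-like cells showed a rise of Cstdc4 and Stfa3. Cstdc4 was 0 CPM, 0.0388 CPM, 0.229 CPM, 0.118 CPM and 0.0659 CPM in control libraries, 7 UMIs in 11181 cells. It was 4.25 CPM, 5.31 CPM, 91.5 CPM, 1.91 CPM and 137 CPM in expanded libraries, 1457 UMIs in 2224 cells. The arms did not overlap, and the first library of day 2 and that of day 4 stood well above the other expanded libraries. The log2 fold change was 9.16 ± 1.03 (SE, edgeR adjusted p = 0.000419).

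Stfa3 in fibroblast-like cells was 0.428 CPM, 0.698 CPM, 0.803 CPM, 2.06 CPM and 0.395 CPM in controls and 3.15 CPM, 11.1 CPM, 30.1 CPM, 5.73 CPM and 1.91 CPM in expanded libraries. The arms overlapped at the day 4 expanded library. Its log2 fold change was 3.27 ± 0.52 (SE, edgeR adjusted p = 0.00127). In the expanded libraries 84 of 2224 cells had a Stfa3 UMI, and 1 cell held 120 of the 364 UMIs. Of 5 cornified envelope and stress keratinocyte genes tested in this class, Tgm1, a transglutaminase of the epidermis, rose (log2 2.70, edgeR adjusted p = 0.00167), where 31.7% of all genes were called in either direction. That list of 18 genes summed to 11.8 to 17.8 CPM in control and 15.3 to 34.8 CPM in expanded libraries, with Sprr3, Ivl and Flg at 0 in the latter, and the part of keratinocyte RNA in the rise of Stfa3 was not tested. Together with Cstb, all 3 members tested in fibroblast-like cells were called higher, where 15.7% of 12576 genes were. Different clusters held most of the class in the 2 arms: cluster 3, led by Igfbp2 and Grem1, made up 15.8% of control and 48.3% of expanded fibroblast-like cells. Within that cluster Cstdc4 was 0 to 0.926 CPM in control and 3.41 to 227 CPM in expanded libraries, and Stfa3 0 to 6.25 CPM and 2.85 to 42.5 CPM. Thinned to 2000 UMIs per cell, Cstdc4 and Stfa3 fell below the count filter of this class and Stfa2 below that of dendritic-like cells, so these 3 calls were not tested at equal depth.

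Few fibroblast-like cells carried Cstdc4. In the expanded libraries 58 of 2224 had a UMI (2.61%, exact 95% interval 1.99% to 3.36%), the 10 highest held 70.9% of the UMIs and the highest had 191. Of the cells with at least 3 UMIs, 39 lay in cluster 3, 14 of them in the day 2 round 1 library and 18 in the day 4 library. They had 321 CPM of the fibroblast gene Pdgfra, against 278 CPM in the 1020 cells of that cluster without Cstdc4, and 3450 against 15700 CPM of Col1a1. Higher in them were S100a9 (861 against 33.8 CPM), S100a8 (476 against 17.6 CPM), the chemokine gene Cxcl3 (605 against 16.6 CPM) and the cytokine gene Il11 (834 against 45.4 CPM). Stfa3 was 165 against 10.2 CPM.

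Neutrophil markers were present at low levels in those 39 cells: Retnlg at 19.7 CPM and Csf3r at 13.9 CPM, against 0.294 and 1.08 CPM in the cells without Cstdc4. The proportion between stefins differed from that of neutrophils, with 41.6 Cstdc4 UMIs per Stfa2l1 UMI in expanded fibroblast-like cells and 1.48 in expanded neutrophil-like cells. Per 100 UMIs of S100a8 and S100a9 together the fibroblast-like cells had 62.4 Cstdc4 UMIs and the neutrophil-like cells 4.48. The 23 neutrophil genes summed to at most 326 CPM in control and 226 to 618 CPM in expanded fibroblast-like cells, with Ltf at 0 in the latter. Of these genes 10 were tested, 8 rose (S100a8 by 6.04, Lcn2 by 4.92, S100a9 by 5.80 and Slpi by 3.23 on the log2 scale among them) and 1 fell. The 39 cells were picked by Cstdc4, and their median depth was 22759 UMIs, against 19194.5 in the cells without Cstdc4. Scrublet called 0.0589% of cells as doublets in the day 2 round 1 and 0.0584% in the day 4 expanded library. In the day 1 expanded libraries it called 1.46% and 1.74%. Doublets of a fibroblast and a neutrophil that both callers missed were not tested for.

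**Figure D4:**
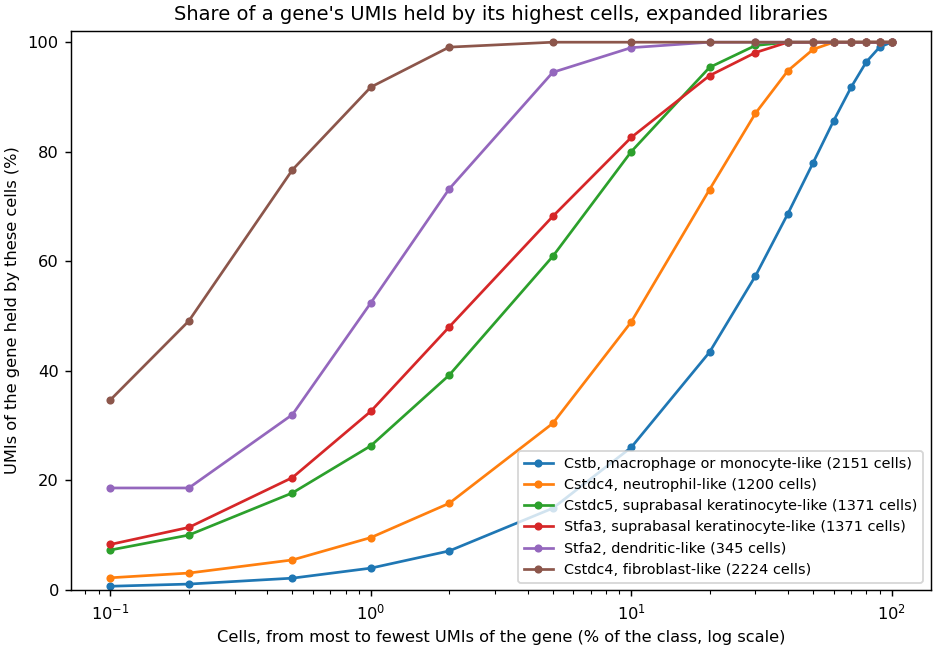
Percent of a gene's UMIs (vertical axis) held by the given percent of the cells of a class, counted from the cell with most UMIs (horizontal axis, log scale), in the expanded libraries. The highest 1% of cells hold 91.8% of Cstdc4 UMIs in fibroblast-like cells and 52.4% of Stfa2 UMIs in dendritic-like cells, against 9.54% for Cstdc4 in neutrophil-like cells and 3.96% for Cstb in macrophage or monocyte-like cells.

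Cstb, the stefin found in all classes, was highest in macrophage or monocyte-like cells and rose there. Its level was 1590 CPM, 1170 CPM, 1490 CPM, 1300 CPM and 1340 CPM in control libraries and 2750 CPM, 3830 CPM, 3290 CPM, 2290 CPM and 3230 CPM in expanded ones. No expanded library reached down to a control library. The log2 fold change was 1.04 ± 0.18 (SE, edgeR adjusted p = 0.00283), and Cstb was the only member tested in this class, where 13.8% of 9358 genes were called higher. The class was made of different clusters in the 2 arms: cluster 10, led by C1qb, C1qc and C1qa, held 90.5% of its control cells, and cluster 8, led by Chil3, Fcgr1 and Msr1, held 93.3% of its expanded cells. Within each cluster Cstb was higher in expanded libraries, at 2300 to 4080 CPM against 1580 to 1740 CPM in cluster 8 (5 and 2 libraries with at least 20 cells) and at 1910 to 2750 CPM against 1040 to 1580 CPM in cluster 10 (2 and 5 libraries). These values within clusters were not tested. Other markers moved in the class too. The 23 neutrophil genes summed to 86.5 to 780 CPM in control and 2380 to 5480 CPM in expanded libraries, none at 0 in the latter, and of 13 tested 10 rose (Wfdc21 by 6.71, S100a8 by 5.59 and Mmp8 by 4.15 on the log2 scale among them) and 1 fell, where 29.3% of all genes were called in either direction. The 5 fibroblast genes summed to 437 to 4270 CPM in control and 36.8 to 508 CPM in expanded libraries. The part of RNA from other cells in the rise of Cstb was not tested. After thinning, 85.2% of control and 96.3% of expanded cells of the class had a Cstb UMI.

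In fibroblast-like cells Cstb was 230 to 377 CPM in controls and 436 to 644 CPM in expanded libraries, again without overlap (log2 0.59 ± 0.14, edgeR adjusted p = 0.00956). Lymphatic endothelial-like cells had 114 to 174 CPM and 172 to 337 CPM, with overlap at the lowest expanded library (log2 0.67 ± 0.18, edgeR adjusted p = 0.0210), in a class where 6.42% of 6294 genes were called higher. The lymphatic call was lost without the day 2 round 2 control (adjusted p = 0.0672), the day 4 control (0.116) or the day 4 expanded library (0.104), without both of the last (0.0997), and after thinning (0.0623).

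Pericyte or smooth muscle-like cells were the class in which Cstb fell. The 5 control libraries were at 362 to 716 CPM and the 5 expanded ones at 191 to 344 CPM, with no overlap. The change was a fall by 0.89 ± 0.18 on the log2 scale (SE, edgeR adjusted p = 0.00509), in a class where 11.0% of 7245 genes were called lower. Its direction was thus opposite to that in macrophages and fibroblasts, although the difference between classes was not tested.

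In 3 further classes Cstb was the only member to pass the count filter and was not called. The log2 differences were 0.18 ± 0.19 in endothelial-like cells (edgeR adjusted p = 0.584), -0.16 ± 0.22 in T cell-like cells (0.841) and 0.20 ± 0.20 in Schwann-like cells (0.802, 4 libraries per arm). In the endothelial-like class 12.4% of 9392 genes were called in either direction, in the T cell-like class 0.279% of 7516 and in the Schwann-like class 0.193% of 6725. In basal keratinocyte-like cells Cstb had 0.25 ± 0.17 (edgeR adjusted p = 0.429).

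**Figure D5:**
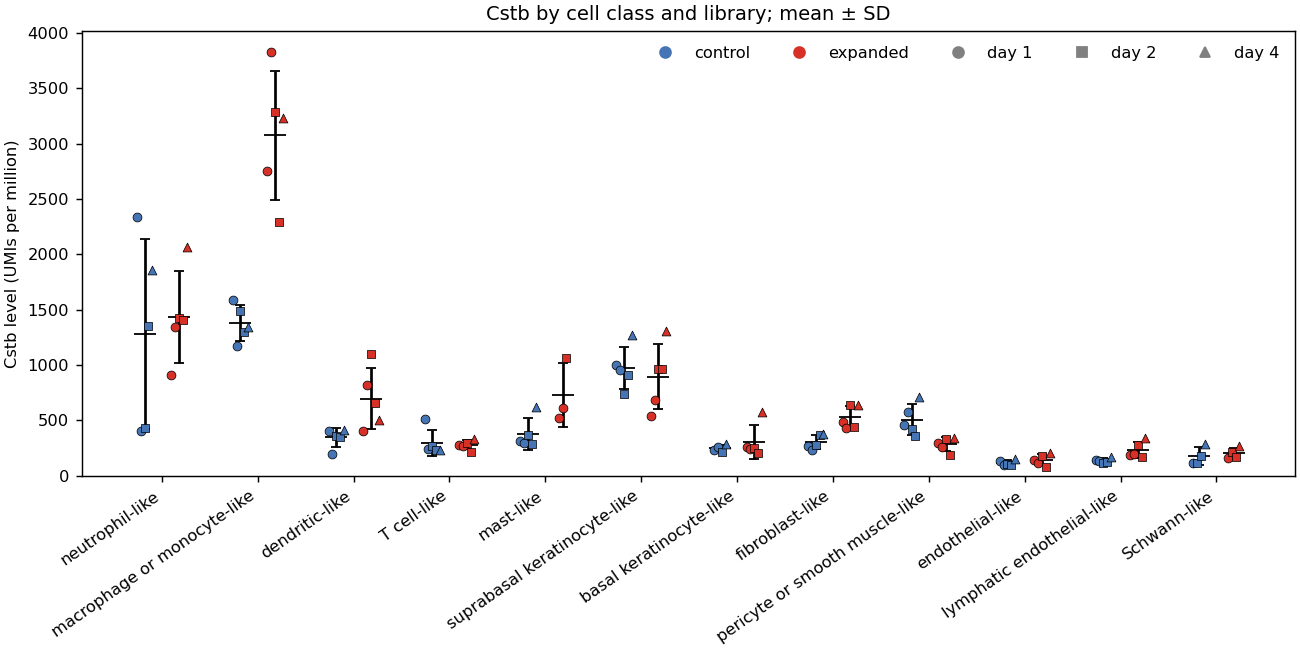
Level of Cstb in CPM (vertical axis) by cell class (horizontal axis) in control (blue) and expanded (red) libraries, 1 point per library with the symbol giving the day, and the mean ± SD. Expanded macrophage or monocyte-like cells sit at 2290 to 3830 CPM, above all their controls, and pericyte or smooth muscle-like cells are lower in the expanded arm.

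The order of mean Cstb levels in control libraries ran from macrophage or monocyte-like (1380 ± 165 CPM, SD, n = 5) over neutrophil-like (1280 ± 859 CPM) and suprabasal keratinocyte-like (976 ± 195 CPM) to pericyte or smooth muscle-like cells (507 ± 140 CPM). Lowest were lymphatic endothelial-like (137 ± 23.7 CPM) and endothelial-like cells (118 ± 21.9 CPM). Neutrophil-like cells did not differ from either neighbour in this order beyond their spread, nor did the last pair from each other. The classes were not compared within single libraries here. In expanded libraries macrophage or monocyte-like cells led with 3080 ± 583 CPM, and neutrophil-like cells followed with 1430 ± 413 CPM. Among single clusters an unnamed one of 154 cells, led by Pthlh, had the highest level, 4210 CPM over all libraries.

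For the clustered genes the order of classes was steeper. In expanded libraries Cstdc5 averaged 1770 CPM in neutrophil-like, 825 CPM in suprabasal keratinocyte-like, 62.2 CPM in hair follicle keratinocyte-like (2 libraries) and 26.4 CPM in basal keratinocyte-like cells. The SDs of the first 2 were 1220 and 176 CPM, and in every expanded library the neutrophil-like value was above the suprabasal one. Stfa3 averaged 202 CPM in suprabasal, 113 CPM in neutrophil-like, 36 CPM in hair follicle keratinocyte-like (2 libraries) and 21.5 CPM in basal keratinocyte-like cells. The SDs of the first 2 were 129 and 135 CPM, and in every expanded library the suprabasal value was above the neutrophil-like one. The lowest neutrophil-like value rests on 2 UMIs, and these differences between classes were not tested. In T cell-like, mast-like, Schwann-like and melanocyte-like cells the expanded mean of every clustered gene was below 10 CPM. In T cell-like cells Cstdc5 stood at 30.9 UMIs per 100 UMIs of S100a8 and S100a9.

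Summed over all cells of a library, 6 of 7 members tested were called higher, where 12.5% of 16510 genes were. The log2 fold changes were 6.22 ± 0.50 for Stfa2, 5.95 ± 0.66 for Cstdc4, 5.21 ± 0.67 for Cstdc5, 5.0 ± 0.66 for Stfa2l1, 3.12 ± 0.46 for Stfa3 and 2.11 ± 0.64 for Csta1, with edgeR adjusted p-values of 0.00159 to 0.0388. Cstb had 0.78 ± 0.27 (edgeR adjusted p = 0.0577). The sum of the 7 clustered genes was 4.07 and 8.45 CPM (day 1), 7.13 and 22.4 CPM (day 2) and 16.7 CPM (day 4) in controls. In expanded libraries it was 129 CPM, 289 CPM, 518 CPM, 526 CPM and 694 CPM in the same order, so every expanded library was above every control. In such sums a change in the share of a cell class and a change of RNA per cell cannot be told apart, and neutrophil-like cells were a larger share of expanded libraries in every round. With neutrophil-like cells left out, the same 6 members were called, and the share of all genes called in that fit is not given. Free neutrophil RNA and the shares of the other classes still enter those sums, and their part was not tested. The Csta1 call did not hold with the sequencing round as a block (edgeR adjusted p = 0.0602), without both day 4 libraries (0.116), or without any single library other than those of day 1 round 1 (0.0567 to 0.117).

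With the count filter no member passed the test of a difference between days. The edgeR test of the day 2 effect minus the day 1 effect called 0 of 31 member and class pairs at an adjusted p of 0.05, with 8 at an unadjusted p under 0.05, and DESeq2 called 0 with 7. Over all genes, classes and all cells together the test called 0.000968% of 103303 gene and class pairs. Without the count filter it called 5 of 83 member and class pairs, where 0.483% of 228150 pairs were called. In that fit the expansion effect was smaller on day 2 for Stfa2 (log2 -4.95, edgeR adjusted p = 3.32e-07) and Stfa2l1 (-2.33, 0.0366) in dendritic-like cells and Cstdc5 (-2.20, 3.67e-07) in suprabasal cells. It was larger for Csta1 (3.54, 0.00984) in suprabasal cells and for Stfa3 (2.27, with a single day 2 control library) in basal cells. The same 5 pairs were tested with the filter and not called, at log2 differences close to these and larger SEs. The SE was 1.78 with and 0.77 without the filter for Stfa2, and 0.99 and 0.35 for Cstdc5. On day 1 alone, Cstdc5 in suprabasal cells had a log2 fold change of 5.38 ± 0.81 (edgeR adjusted p = 0.0104) and on day 2 of 3.24 ± 0.73 (0.222). In the same class Cstb had -0.77 ± 0.18 on day 1 (edgeR adjusted p = 0.0398) and 0.17 ± 0.18 on day 2 (0.723). Over all genes of that class the day 1 test called 565 of 10196 in either direction, and the day 2 test called 0. Day 4 has 1 library per arm, so values at day 4 have no replicate of their own.

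Papain-like cathepsins are the proteases that stefins block, and several passed the test, in both directions. The list of 11 genes also holds legumain (Lgmn), a lysosomal protease of another family that secreted cystatins block. Of 10 tested in fibroblast-like cells, where 31.7% of all genes were called, 3 fell (Ctsf by 1.45, Ctso by 1.29 and Ctsh by 1.57 on the log2 scale) and Lgmn rose (0.89). In macrophage or monocyte-like cells (29.3% of all genes called) 4 of 10 fell (Ctsf, Ctso and Ctsc among them) and Ctsl, a lysosomal endopeptidase, rose by 1.34 ± 0.24 (edgeR adjusted p = 0.00290). In suprabasal cells (17.7%) Ctsz and Ctsk fell and Lgmn rose, of 9 tested. In dendritic-like cells (6.50%) Ctsk fell and Ctss, a protease of antigen presentation, rose (0.70 ± 0.15, edgeR adjusted p = 0.0221), of 8 tested. In endothelial-like cells (12.4%) Ctsh, Ctsk and Ctso fell, of 9 tested. In lymphatic endothelial-like cells (13.0%) Ctsk and Ctsh fell and Lgmn rose, of 7 tested. In pericyte or smooth muscle-like cells (20.2%), where Cstb fell, Ctsb rose by 1.00 ± 0.16 (edgeR adjusted p = 0.00162) and Ctsc by 0.80 ± 0.25 (0.0367), of 8 tested. In neutrophil-like cells (1.00%) none of 3 tested was called. The list's median log2 difference lay between -0.41 and 0.34 in these classes, beside 0.00 to 0.02 over all genes tested. In the classes where Ctsk fell, fibroblast genes were called lower too. Col1a1 had log2 differences of -4.77 in lymphatic endothelial-like, -4.07 in dendritic-like and -3.12 in suprabasal cells, and Col1a2 one of -3.13 in endothelial-like cells. The part of free RNA in the changes of the proteases was not tested.

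Among the other stefins and cystatins, Csta3 (log2 5.80 ± 0.76, edgeR adjusted p = 0.00220) and Cstdc6 (3.75 ± 0.65, 0.00481), both of the chromosome 16 cluster, rose over all cells, and so did Cst6 (1.40 ± 0.32, 0.0138). Cst3, the secreted cystatin C, fell in the same sums by 0.64 ± 0.12 (edgeR adjusted p = 0.00692), and also in endothelial-like, fibroblast-like, lymphatic endothelial-like, macrophage or monocyte-like, pericyte or smooth muscle-like and suprabasal cells. In suprabasal cells Csta3 rose (4.29 ± 0.80, edgeR adjusted p = 0.00508), and in lymphatic endothelial-like cells Cst6 fell by 1.52 ± 0.27 (0.00187). Of the 14 symbols on this list 10 were in the files, and 5 were tested over all cells, of which 3 rose and 1 fell, where 26.3% of all genes were called. The part of free RNA in the changes within classes was not tested.

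Genes whose level ran most alike over the 131 class-by-library sums differed between members, by Pearson's r of log2(CPM + 1) over sums that share libraries. Among the members themselves Stfa2 with Stfa2l1 (0.868), Stfa2l1 with Cstdc4 (0.784) and Stfa3 with Cstdc5 (0.759) ran most alike. With the members left out of the ranking, the nearest genes of Stfa2l1 and Cstdc4 were the neutrophil genes Retnlg (0.839 and 0.905) and next Mrgpra2b. For Stfa2 they were Itgax (0.751), an integrin gene of dendritic and other myeloid cells, and Mmp9 (0.724), a neutrophil gene. For Stfa3 they were Spink5 (0.699) and Calm4 (0.692), genes of the differentiating epidermis. For Cstdc5 they were Csta3 (0.755), Hcar2 (0.727) and Asprv1 (0.724), a protease gene of the epidermis, and for Cstb Pstpip2 (0.731), Il1rn (0.721) and Rbm47 (0.711). Stfa1 and Csta1 averaged less than 5 CPM and were not compared.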

How the data were processed

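Single-cell 3′ libraries of live sorted mouse skin cells were counted by the authors with Cell Ranger 6.1.2 on mm10, per the submitters' processing notes. The deposited values are raw UMI counts per gene and cell, and the hashtag files hold deposited counts of antibody tags. A barcode was taken as a cell from 200 genes and 500 UMIs upward, if no more than 10% of its UMIs were mitochondrial. Doublets were removed with Scrublet and, where hashtags existed, by hashtag, 1.46% to 5.78% of cells per library. Scrublet alone called 0.0584% to 2.97%. Cells were clustered with scanpy 1.11.5 (2000 variable genes, 30 components, 15 neighbours by exact distance, Leiden resolution 1) and named from marker lists. A cluster was named where no other class had more markers among its 10 leading genes, a rule settled after the clusters had been seen that decided the naming of 1 cluster, the 2424 suprabasal cells.

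The 8 genes, the gene lists and the thresholds on single cells were chosen with earlier results of these data known. All 8 members were named, with up to 4 called genes per list and class of smallest adjusted p and the genes most like each member. Counts were summed per class and library with at least 20 cells (5 for neutrophil-like cells) and tested with edgeR 4.0.16 (R 4.3.3; quasi-likelihood test, filterByExpr, TMM, day and arm as terms, Benjamini-Hochberg over all genes of the class, threshold 0.05). The test was tried on simulated data. Alternatives were DESeq2 1.42.0, no count filter, the sequencing round as a replicate block, mice as units, other cell filters, thinning to 2000 UMIs, leaving out each library, and, added after the data were seen, leaving out both day 4 libraries and Leiden clustering from 4 other random seeds. Libraries of a round share a batch per the labels: over all cells the round differences of the 2 arms correlated across genes at 0.56 on day 1 and 0.33 on day 2. Libraries are pools of mice, so p-values measure the spread between pools. Promoters and gene starts came from RefSeq (GRCm38.p6) and GENCODE (GRCm38).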

Additional observations from a re-analysis of the deposited data

Results flagged for a closer look

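In 8 of 62 groups of libraries the highest or lowest library stood far from the others by Dixon's criterion, which chance meets in about 1 in 20 groups. Among control libraries, Cstb in T cell-like cells was 511 CPM in the day 1 round 1 library against 234 to 269 CPM in the others, and Cstdc5 in basal keratinocyte-like cells was 11.3 CPM in the day 4 library against 0 to 1.09 CPM. Another 3 values were of the day 2 round 2 control: Stfa2 over all cells (1.08 CPM against 0.0283 to 0.242), Stfa2 in dendritic-like cells (46.1 CPM against 1.64 to 6.01) and Stfa3 in fibroblast-like cells (2.06 CPM against 0.395 to 0.803). Among expanded libraries all 3 were of day 4, which has no second library: Cstb in basal keratinocyte-like cells (575 CPM against 207 to 258), Stfa3 in the same class (65.8 CPM against 5.70 to 15.3) and Cstdc5 in neutrophil-like cells (3910 CPM against 955 to 1550).

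Cstb in suprabasal keratinocyte-like cells moved in opposite directions on days 1 and 2, 1 of 27 member and class pairs to do so. The expanded libraries were higher than the controls by 143 CPM on average on day 2 and differed by -365 CPM on day 1, every library of a day going the same way. edgeR's test of the day difference did not call it (log2 0.95 ± 0.26, adjusted p = 0.542).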

How the results depend on the processing

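Of 31 member and class pairs, 17 were called, and 12 of those were called in every alternative that tested them. Without the count filter 25 calls were made over the 10 classes in place of 10, 5 in neutrophil-like cells in place of 1, and 5 of the day difference in place of 0. Thinning to 2000 UMIs left 6 calls over the classes. In neutrophil-like cells DESeq2 made 4 calls, mice as units 4, the replicate block 2, at least 10 or 20 cells per library 3 and 2, and leaving out both day 4 libraries 0 (DESeq2 was not run there). Leaving out 1 library gave 8 to 14 calls over the classes, 0 to 4 in neutrophil-like cells and 5 to 7 over all cells, with an expanded cluster sum of 8090 to 11000 CPM in neutrophil-like and 928 to 1150 CPM in suprabasal cells. The replicate block gave 10 calls over the classes and 5 over all cells, and each of the 4 other clustering seeds 9 and, in neutrophil-like cells, 1. Direction reversed only for uncalled values: Cstb in Schwann-like cells on thinning (-0.01) and in T cell-like cells per mouse (0.17), Stfa3 in basal keratinocyte-like cells without both day 4 libraries (-0.24), and, on leaving out 1 library, Cstb in T cell-like cells (-0.32 to 0.11, above 0 without the day 1 round 1 control), Cstb in endothelial-like cells (-0.02 to 0.32, below 0 without the day 2 round 1 expanded library) and Stfa3 in basal keratinocyte-like cells (-0.26 to 1.5, below 0 without either day 4 library). The causes were not tested, apart from genes lost to the filter at lower depth. For most of these alternatives the share of all genes called is not given. Their counts of calls therefore do not set the members apart from other genes. Control libraries held 7 to 43 neutrophil-like cells, which limits the precision in that class.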
